A study of Homo sapiens with 6 samples.

Results

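Aminoacyl-tRNA synthetases attach each amino acid to its tRNA, the step that links the genetic code to protein synthesis. The nuclear genome encodes separate sets for the cytosol, named with a final 1, and for mitochondria, named with a final 2, and a few genes supply both compartments. Several cytosolic enzymes are held together by the scaffold proteins AIMP1, AIMP2 and EEF1E1 in the multisynthetase complex. The genes of many cytosolic enzymes are targets of the transcription factor ATF4 when amino acids are scarce. The mRNAs of these enzymes were examined in extracellular vesicles (EVs) released by T cells with and without CD47, a receptor for thrombospondin-1.

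Genes were chosen by symbol alone. These were the synthetases whose symbols end in ARS1 or ARS2, together with EPRS1, FARSA and FARSB for the cytosol and the scaffolds AIMP1 and AIMP2. Of the 39 genes that this rule takes, 36 were measured among 18417 genes in all. They comprised 19 cytosolic enzymes, 16 mitochondrial enzymes and AIMP1, and the other 3 were not analysed here.

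CD47- EVs came from JinB8, a mutant of the Jurkat line that lacks CD47, and WT EVs came from the parental Jurkat line (JK), a human T cell leukemia line. Each group had 3 arrays, which the submitters call cell culture replicates, and each group stands for 1 cell line. It is not settled that each replicate was a separate culture, so p values measure the spread between these preparations, which may be technical. Both lines were kept in the serum-free medium HITES for 24 to 48 h, the EVs were isolated with Exo-quick or Exo-spin, and 300 ng of total RNA was labeled for each Affymetrix whole-transcript human gene array. The sources used here do not say which preparation had which kit.

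The deposited log2 values place each mRNA relative to the other RNAs of its preparation. A higher value therefore cannot tell more mRNA per vesicle from more vesicles that carry it. The arrays used here measured EVs only, so a higher level of the mRNA in the JinB8 cells cannot be told apart either. Array medians lay between 5.08 and 5.14 over 33297 probe sets, and arrays correlated with r from 0.981 to 0.989 across genes. As a rough gauge of background, 341 olfactory receptor genes, normally silent in T cells, had log2 values with a median of 5.49, and their 95th percentile was 6.79. Of 8 T cell markers, 6 lay above that median, and LCK and CD7 lay above that percentile. The CD47 probe set gave log2 values of 4.58, 4.67 and 4.94 in CD47- EVs, against 4.72, 4.69 and 4.72 in WT EVs, so it did not separate the groups and does not check the labels.

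In the deposited values, none of the 36 genes passed an adjusted p under 0.05 in either direction, so none could be called for the cytosol, the mitochondria or the complex. Over all genes, 0.684% passed in either direction, 0.668% as higher and 0.0163% as lower in CD47- EVs (limma, Benjamini-Hochberg over 18417 genes). At an unadjusted p under 0.05, 7 of the 36 were higher in CD47- EVs, all of them cytosolic, and 0 were lower. The same threshold called 5.16% of all genes higher and 2.87% lower. The log2 differences of these 36 genes, CD47- EVs minus WT EVs, ran from -0.24 to 0.43. Each fell short of the threshold across all genes in the deposited values.

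Below that threshold, the cytosolic values lay mostly on the side of CD47- EVs and the mitochondrial values were spread about 0. Of the 19 cytosolic mRNAs, 17 had a log2 difference above 0 (CD47- EVs minus WT EVs), with a median of 0.12. Of the 16 mitochondrial mRNAs, 6 lay above 0 and 10 below, with a median of -0.02. Without WT replicate 1 the mitochondrial median was 0.01. In the deposited values, 51.3% of all genes lay above 0 and their median was 0.003. After centering on olfactory receptor genes 12 mitochondrial mRNAs lay above 0, as did 74.5% of all genes. All 3 CD47- arrays exceeded all 3 WT arrays for 9 cytosolic mRNAs (47.4%) and for 1 mitochondrial mRNA (6.25%), where 7.3% of all genes did so. No member had all 3 CD47- arrays below all 3 WT arrays, a pattern found in 5.53% of all genes. These counts describe lists whose members were known to earlier analyses of these data, and no test was made over either list.

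**Figure D1:**
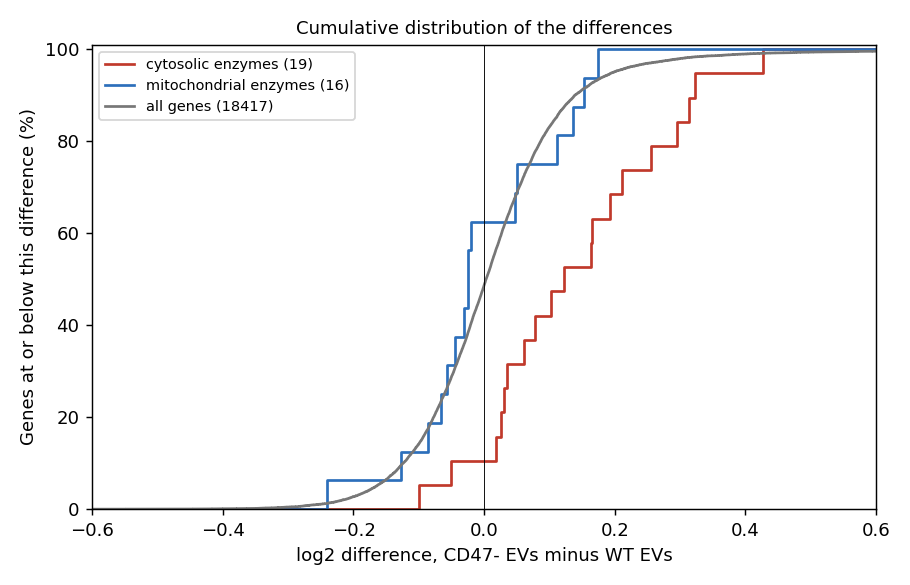
Cumulative percent of genes at or below each log2 difference, CD47- EVs minus WT EVs, for 19 cytosolic enzymes, 16 mitochondrial enzymes and all 18417 genes; the axis is limited to the range from -0.6 to 0.6. The cytosolic curve lies to the right of the curve of all genes, with medians of 0.12 and 0.003, and the mitochondrial curve runs close to that of all genes.

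Among the cytosolic enzymes outside the multisynthetase complex, GARS1 had the largest difference with all 6 arrays. It encodes the glycyl-tRNA synthetase of both cytosol and mitochondria, from a single gene. GARS1 had log2 values of 5.26, 5.40 and 5.70 in CD47- EVs, against 5.11, 5.03 and 4.94 in WT EVs. The groups did not overlap, and the spread was wider in CD47- EVs because the third array lay well above the other two. The log2 difference was 0.43 (standard error 0.10, 1.34-fold), with an adjusted p of 0.124 from limma, and it was 0.31 without CD47- replicate 3.

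NARS1 and SARS1 charge the tRNAs of asparagine and serine. NARS1 had log2 values of 6.91, 6.87 and 6.85 in CD47- EVs, against 6.75, 6.63 and 6.36 in WT EVs, a difference of 0.29 (standard error 0.10, adjusted p = 0.333, limma). SARS1 had values of 5.83, 5.75 and 5.83 in CD47- EVs, against 5.65, 5.60 and 5.22 in WT EVs, a difference of 0.31 (standard error 0.11, adjusted p = 0.350, limma). For both genes the CD47- arrays were tightly grouped and WT replicate 3 lay well below the other WT arrays. Without it the log2 difference was 0.18 for NARS1 and 0.18 for SARS1. That array was also slightly low over all genes, with a median of -0.03 relative to the WT mean of each gene, against 0.02 and 0.01 in the other WT arrays, and the part of this in the 2 results was not tested.

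FARSA encodes the catalytic subunit of cytosolic phenylalanyl-tRNA synthetase and FARSB its partner subunit. FARSA had log2 values of 6.52, 6.61 and 6.58 in CD47- EVs, against 6.44, 6.30 and 6.40 in WT EVs, a difference of 0.19 (standard error 0.08, adjusted p = 0.490, limma). FARSB had values of 4.32, 4.26 and 4.24 in CD47- EVs, against 4.29, 4.17 and 4.17 in WT EVs. The groups were apart for FARSA and overlapped for FARSB, whose difference was 0.06 with a 95% interval from -0.10 to 0.22. The difference between the subunits was not tested.

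AARS1, the alanine enzyme, and TARS1, the threonine enzyme, completed the 6 mRNAs of this group without overlap. AARS1 had log2 values of 6.14, 6.24 and 6.35 in CD47- EVs, against 6.10, 6.05 and 6.09 in WT EVs, a difference of 0.17 (adjusted p = 0.653, limma). TARS1 had values of 4.58, 4.58 and 4.67 in CD47- EVs, against 4.41, 4.53 and 4.39 in WT EVs, a difference of 0.16 (adjusted p = 0.627, limma). Both fell short of an unadjusted p under 0.05. The other mRNAs outside the complex, WARS1 (tryptophan), YARS1 (tyrosine), CARS1 (cysteine), FARSB, VARS1 (valine) and HARS1 (histidine), overlapped between the groups, with log2 differences from 0.03 to 0.12. All 12 cytosolic mRNAs outside the complex had differences above 0, with a median of 0.14.

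Members of the complex divided, as did the cytosolic enzymes outside it, of which 6 of 12 had separated groups. QARS1, IARS1 and KARS1, the enzymes of glutamine, isoleucine and lysine, had all CD47- arrays above all WT arrays. This pattern was found in 7.3% of all genes. The other 5 measured members of the complex overlapped between the groups. Over the 8 members the median log2 difference was 0.02, and 5 lay above 0, as did 51.3% of all genes. This median was 0.11 without CD47- replicate 2 and -0.004 without WT replicate 1. After centering on olfactory receptor genes it was 0.08, and 7 members lay above 0, as did 74.5% of all genes.

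QARS1 had the smallest p of the members with all 6 arrays. Its product charges glutamine in the cytosol, whereas mitochondria make their glutaminyl-tRNA by an indirect route. QARS1 had log2 values of 6.62, 6.75 and 6.63 in CD47- EVs, against 6.40, 6.28 and 6.35 in WT EVs. The gap between the groups was wider than the spread within either, and the log2 difference was 0.32 (standard error 0.08, 1.25-fold, adjusted p = 0.105, limma). IARS1 had values of 5.64, 5.97 and 5.96 in CD47- EVs, against 5.60, 5.64 and 5.57 in WT EVs. The lowest CD47- array of IARS1 only just exceeded the highest WT array, and the difference was 0.26 (standard error 0.09, adjusted p = 0.435, limma).

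KARS1, like GARS1, supplies both the cytosol and mitochondria. It had log2 values of 5.38, 5.30 and 5.43 in CD47- EVs, against 5.28, 5.04 and 5.16 in WT EVs, a difference of 0.21 (standard error 0.08, adjusted p = 0.490, limma). CD47- replicate 2 lay close to WT replicate 1. Without GARS1 and KARS1, the 17 remaining cytosolic mRNAs had a median of 0.10, and 15 of them lay above 0.

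EPRS1, which carries the glutamate and proline enzymes in a single protein, had log2 values of 4.96, 4.68 and 4.79 in CD47- EVs, against 4.70, 4.83 and 4.82 in WT EVs. The methionine enzyme MARS1 had 5.13, 4.85 and 5.22 in CD47- EVs, against 5.01, 5.11 and 5.02 in WT EVs. For both, CD47- replicate 2 was the lowest of the 6 arrays and the other CD47- arrays included the highest. The log2 differences were 0.03 for EPRS1 (95% interval from -0.16 to 0.21) and 0.02 for MARS1 (95% interval from -0.19 to 0.23).

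The arginine and leucine enzymes gave the cytosolic differences below 0, of which that of RARS1 was above 0 (0.0086) after centering on olfactory receptor genes. RARS1 had log2 values of 3.89, 4.02 and 4.11 in CD47- EVs, against 3.96, 4.05 and 4.17 in WT EVs, a difference of -0.05 (adjusted p = 0.949, limma). LARS1 had values of 3.91, 3.99 and 4.11 in CD47- EVs, against 4.24, 4.09 and 3.97 in WT EVs, a difference of -0.10 (adjusted p = 0.882, limma). The groups overlapped for both genes. AIMP1, the measured scaffold, had values of 3.74, 3.84 and 3.83 in CD47- EVs, against 3.83, 3.87 and 3.75 in WT EVs, and its difference was -0.01 with a 95% interval from -0.18 to 0.15. RARS1, LARS1 and AIMP1 were dim, each with a mean above no more than 11.7% of the olfactory receptor genes, so whether their probe sets could report a change was not tested.

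**Figure D2:**
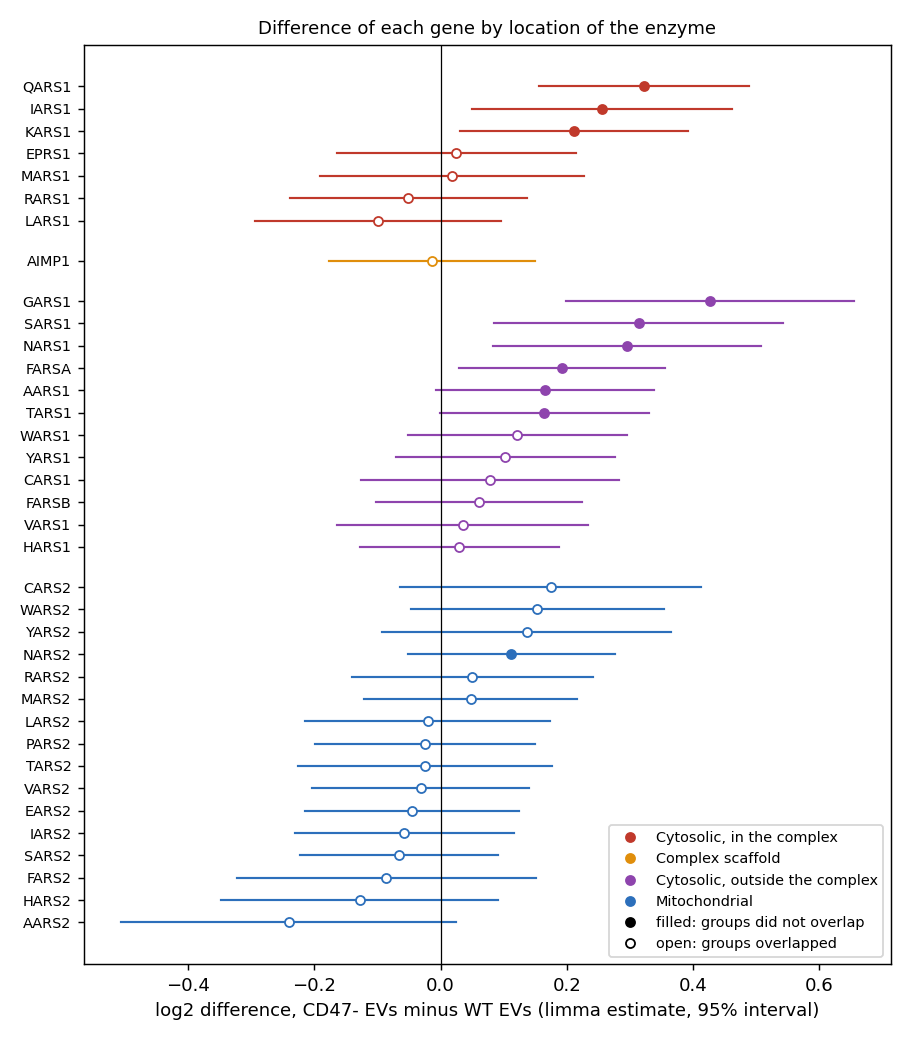
Log2 difference of each gene, CD47- EVs minus WT EVs, as the limma estimate with its 95% interval (3 arrays per group), grouped as enzymes of the multisynthetase complex, the scaffold, cytosolic enzymes outside the complex and mitochondrial enzymes. Filled points mark the 10 genes whose groups did not overlap, 9 of them cytosolic, and open points those that overlapped.

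Because the genes of many cytosolic enzymes are known ATF4 targets, the promoters of the measured genes were searched. The search was for the composite element that ATF4 binds together with C/EBP proteins, spelled TGATGNAA and read on both strands. Windows ran from 250 bases before to 50 bases after each RefSeq start (GRCh38.p14), and 31 of the 36 genes had at least 1 window. The element occurred in 7 of 16 cytosolic genes (43.8%), 1 of 14 mitochondrial genes (7.14%, YARS2) and 4.46% of 27305 genes with a window of the same length. The 7 cytosolic matches are shown because they hold the element whose shares are compared here. Each line gives 30 bases in the direction of the gene, 5′ to 3′, with the element in capitals, which reads TGATGNAA on the opposite strand in every gene but NARS1.
AARS1: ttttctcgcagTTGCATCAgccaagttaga
CARS1: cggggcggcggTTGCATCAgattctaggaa
GARS1: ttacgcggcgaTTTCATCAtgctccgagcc
IARS1: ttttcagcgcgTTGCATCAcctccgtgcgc
MARS1: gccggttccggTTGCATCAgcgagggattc
NARS1: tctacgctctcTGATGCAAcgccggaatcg
TARS1: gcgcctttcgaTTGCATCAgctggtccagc
Each window lies on the strand of its gene in GRCh38.p14. The windows on the minus strand were chr16:70289675-70289704 for AARS1, chr11:3057407-3057436 for CARS1, chr9:92293692-92293721 for IARS1 and chr18:57621804-57621833 for NARS1. Those on the plus strand were chr7:30594834-30594863 for GARS1, chr12:57488053-57488082 for MARS1 and chr5:33440956-33440985 for TARS1. In all but GARS1 the element was TGATGCAA, and in GARS1 it was TGATGAAA.

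The cytosolic genes with the element had a median log2 difference of 0.17, and 5 of 7 had CD47- arrays that all lay above the WT arrays, as 7.3% of all genes did. The cytosolic genes without it had a median of 0.12, and 4 of 9 had such groups. The difference between these sets was not tested. QARS1, SARS1, FARSA and KARS1, which had no match in this window, stood among the mRNAs with separated groups, and CARS1 and MARS1 had the element and overlapped. The element was also present in 7 of 21 genes of the amino acid response list (33.3%). A match of these letters is a description of the sequence and shows neither binding nor use. The motif of NRF1, a regulator of nuclear genes for mitochondrial proteins, read on both strands, occurred in 2 of 16 cytosolic genes (SARS1 and FARSB), 1 of 14 mitochondrial genes (MARS2) and 3.31% of all genes with a window.

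The 16 mitochondrial mRNAs had log2 differences from -0.24 to 0.17. With all 6 arrays, AARS2, the mitochondrial alanine enzyme, had the smallest p among them. AARS2 had log2 values of 5.08, 5.47 and 5.02 in CD47- EVs, against 5.25, 5.59 and 5.45 in WT EVs. CD47- replicate 2 lay within the WT range and the other CD47- arrays below it, and the log2 difference was -0.24 (standard error 0.12, adjusted p = 0.683, limma). It was -0.38 without CD47- replicate 2, -0.15 without CD47- replicate 3 and -0.16 without WT replicate 2.

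WARS2, the tryptophan enzyme, had log2 values of 4.06, 4.28 and 4.36 in CD47- EVs, against 4.14, 4.12 and 3.97 in WT EVs, a difference of 0.15 (adjusted p = 0.757, limma). CARS2, the cysteine enzyme, had values of 5.61, 5.60 and 5.37 in CD47- EVs, against 5.19, 5.60 and 5.27 in WT EVs, a difference of 0.17 (adjusted p = 0.775, limma). The groups overlapped for both. The difference of WARS2 ranged from 0.09 (without CD47- replicate 3) to 0.24 (without CD47- replicate 1), and that of CARS2 from 0.09 (without WT replicate 1) to 0.30 (without WT replicate 2). NARS2, the asparagine enzyme, had values of 3.75, 3.82 and 3.76 in CD47- EVs, against 3.60, 3.65 and 3.75 in WT EVs. It was the mitochondrial mRNA whose groups did not overlap, by a margin far smaller than the spread within either group, and its difference was 0.11 (adjusted p = 0.799, limma). WARS2 and NARS2 were dim, with means above 13.5% and 8.21% of the olfactory receptor genes. Whether their probe sets could report a change was not tested.

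The other 12 mitochondrial mRNAs all overlapped between the groups. YARS2, RARS2 and MARS2 had log2 differences of 0.14, 0.05 and 0.05. HARS2, FARS2, SARS2, IARS2, EARS2, VARS2, TARS2, PARS2 and LARS2 had differences from -0.13 to -0.02, each with a 95% interval that included 0, and after centering on olfactory receptor genes IARS2, EARS2, VARS2, TARS2, PARS2 and LARS2 lay above 0. In each array the median of the mitochondrial values, relative to the WT mean of each gene, was 0.01, -0.05 and 0.02 in CD47- EVs, against 0.05, 0.02 and -0.04 in WT EVs. The cytosolic medians were 0.13, 0.14 and 0.17 in CD47- EVs, against 0.05, -0.003 and -0.03 in WT EVs. On this measure the 3 CD47- arrays lay close together and above the 3 WT arrays for the cytosolic set, whereas the groups overlapped for the mitochondrial set. The plain medians of the mitochondrial log2 values were 4.94, 4.86 and 4.94 in CD47- EVs, against 5.01, 5.05 and 5.01 in WT EVs. On that measure the mitochondrial groups did not overlap and CD47- EVs were lower. The plain cytosolic medians were 5.24, 5.24 and 5.22 in CD47- EVs, against 5.11, 5.04 and 5.02 in WT EVs.

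**Figure D3:**
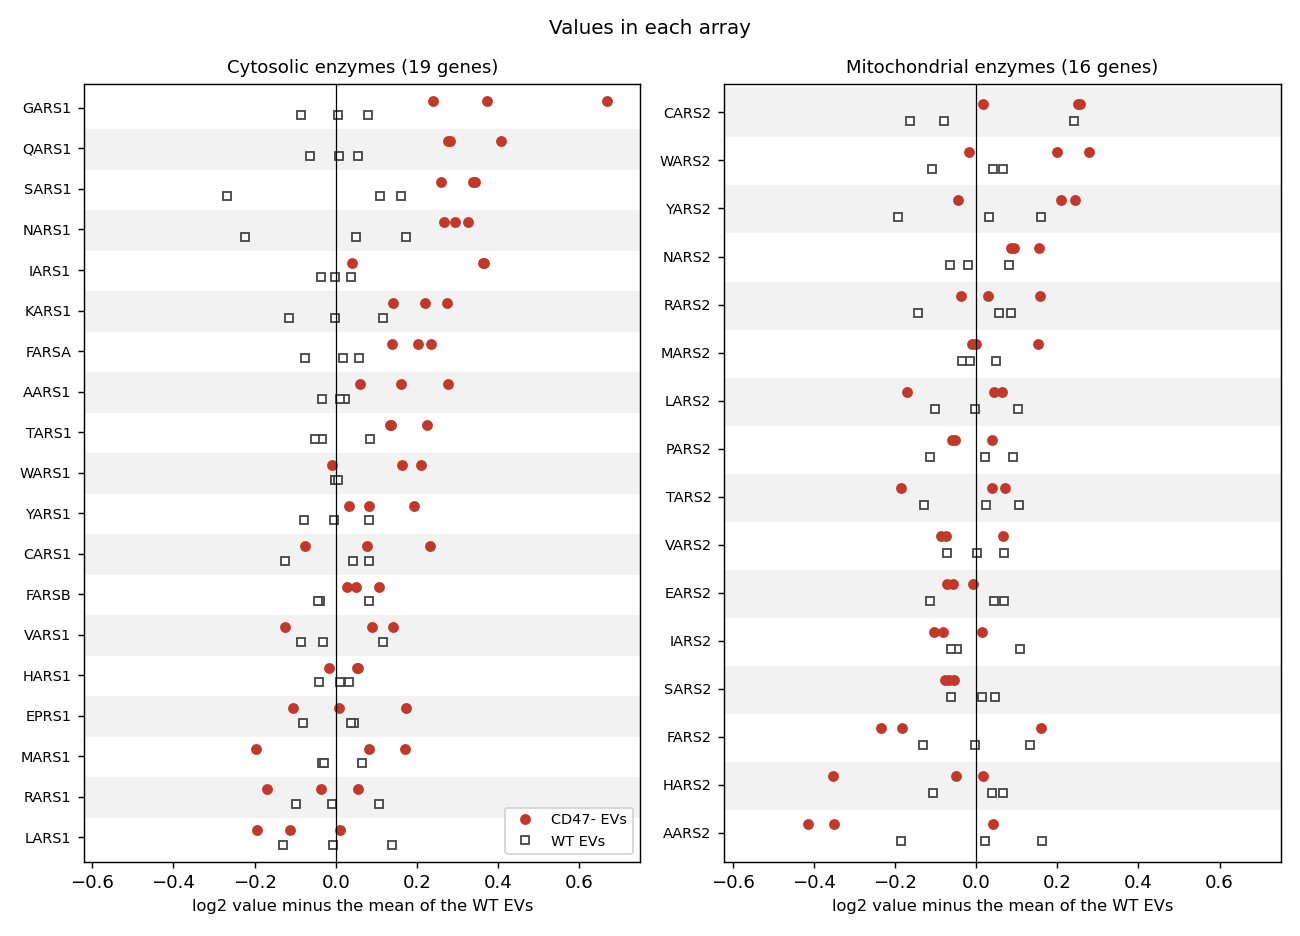
Log2 value of each of the 3 CD47- arrays (filled circles) and 3 WT arrays (open squares) minus the WT mean of that gene, for 19 cytosolic enzymes (left) and 16 mitochondrial enzymes (right), ordered by difference. Circles lie to the right of all squares for 9 cytosolic genes and for NARS2 among the mitochondrial genes.

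Enzymes of the same amino acid were then set side by side, since they share a substrate but not a compartment. In 17 gene pairs, the cytosolic mRNA had the larger log2 difference in 11 and the mitochondrial mRNA in 6, and the median of cytosolic minus mitochondrial was 0.07. With all 6 arrays, the widest gap was between AARS1 (0.17) and AARS2 (-0.24), but another pair had the widest gap without CD47- replicate 1 or 3 or WT replicate 2. SARS1 (0.31) and SARS2 (-0.07), IARS1 (0.26) and IARS2 (-0.06), and FARSA (0.19) and FARS2 (-0.09) also lay on opposite sides of 0, except that IARS2 was at 0.0024 after centering on olfactory receptor genes. The asparagine enzymes NARS1 (0.29) and NARS2 (0.11) both lay above 0. The order was the other way for RARS1 (-0.05) and RARS2 (0.05), CARS1 (0.08) and CARS2 (0.17), and LARS1 (-0.10) and LARS2 (-0.02), and by smaller amounts for the enzymes of tyrosine, tryptophan and methionine. EPRS1 and FARS2 each enter more than 1 pair, and no test of the pairs was made.

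**Figure D4:**
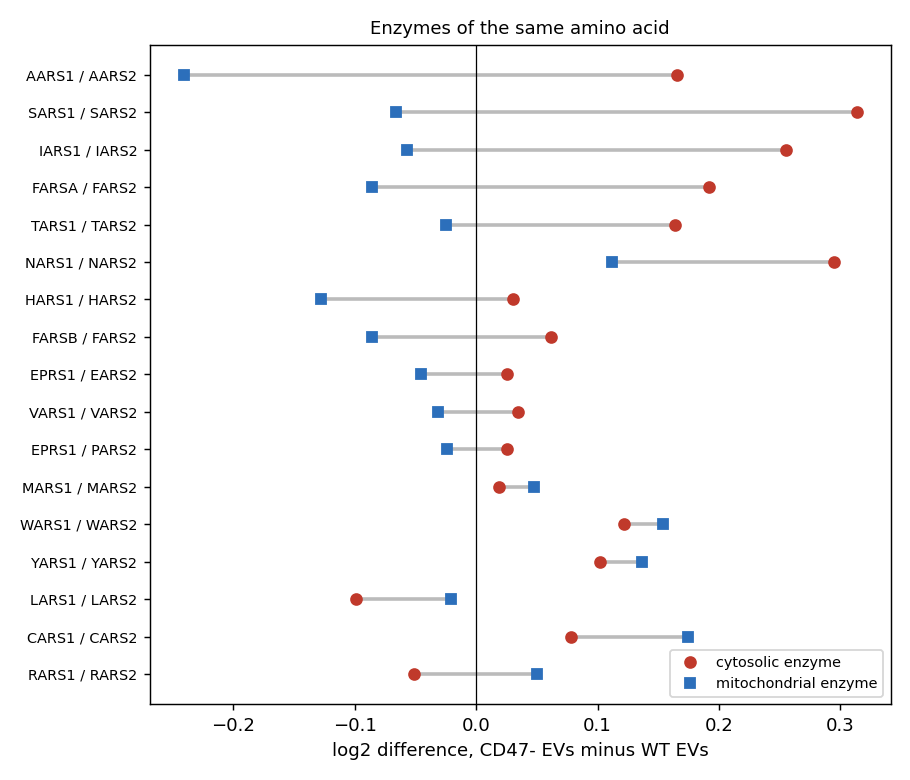
Log2 difference, CD47- EVs minus WT EVs, of the cytosolic enzyme (circle) and the mitochondrial enzyme (square) for each of 17 pairs, ordered by the gap. The circle lies to the right in 11 pairs and the square in 6, with the widest gap, over all 6 arrays, for alanine.

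Brightness moved with the cytosolic differences. The 7 cytosolic mRNAs with a mean above the olfactory receptor median had a median difference of 0.26, and 6 of them had separated groups. The 12 at or below it had a median of 0.05, and GARS1, KARS1 and TARS1 had separated groups. The 4 mitochondrial mRNAs above the olfactory receptor median, EARS2, VARS2, PARS2 and TARS2, had differences from -0.05 to -0.02 and overlapping groups. Over all genes, the CD47- arrays exceeded the WT arrays in 9.45% of genes above the olfactory receptor median and in 5.91% of those at or below it.

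The olfactory receptor genes themselves had a median difference of -0.05, with 237 of 341 below 0. When each array was centered on them, the median of all genes was 0.06 and 74.5% of genes lay above 0. The medians were then 0.18 for the cytosolic set and 0.04 for the mitochondrial set, of which 12 of 16 lay above 0, and GARS1 (adjusted p = 0.0223) and QARS1 (adjusted p = 0.0291, limma) passed. The array medians over the 8 T cell markers were 6.40, 6.39 and 6.51 in CD47- EVs, against 6.19, 6.06 and 5.99 in WT EVs. In the deposited values none of these markers passed the test. There 7 lay above 0 and CD247 below it (-0.04), where 51.3% of all genes lay above 0. All CD47- arrays exceeded all WT arrays for 4 of the markers, and for 7.3% of all genes. CD3E had the largest difference, 0.37 (adjusted p = 0.112, limma). Markers of B cells (3 measured), myeloid cells (4), erythroid cells and platelets (4) and liver (4) included 0 that passed. Their median differences were 0.002, 0.006, -0.07 and -0.06, in that order, and all 4 markers of erythroid cells and platelets and all 4 of liver lay below 0. The part of these shifts in the synthetase values was not tested.

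Genes that work beside the synthetases were taken from lists of tRNA biology. Of 7 measured partners of tRNA charging, 2 rose in CD47- EVs and 0 fell, where 0.668% of all genes rose and 0.0163% fell. EEF1A1, the elongation factor that takes charged tRNA to the ribosome, had log2 values of 10.21, 10.24 and 10.56 in CD47- EVs, against 9.43, 9.62 and 9.30 in WT EVs, a difference of 0.89 (standard error 0.11, adjusted p = 0.00158, limma). EEF1A1 has many processed pseudogenes, and its probes may share signal with them. EEF1G, a subunit of its exchange factor, had a difference of 1.08 (standard error 0.10, adjusted p = 0.000263, limma). For both factors every CD47- array lay above every WT array, and the log2 differences were larger than that of any synthetase measured.

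Of 21 genes of tRNA processing and export, 1 rose and 0 fell, against 0.668% and 0.0163% of all genes. The gene that rose was SSB, the La protein that binds the ends of new tRNA precursors. SSB had log2 values of 5.49, 5.74 and 5.77 in CD47- EVs, against 5.25, 5.18 and 5.13 in WT EVs. Its groups did not overlap, and the log2 difference was 0.48 (standard error 0.09, adjusted p = 0.0299, limma). This call was lost without CD47- replicate 2 or 3 and without any single WT replicate, with an adjusted p between 0.0603 and 0.164 in these cases.

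Of 4 genes for mitochondrial glutaminyl-tRNA and initiator methionyl-tRNA, none passed, 1 lay above 0 and 3 below. GATB, a subunit of the amidotransferase, and MTFMT, the formyltransferase, each had a log2 difference of -0.15 (adjusted p = 0.723 and 0.742, limma). GATC, another subunit of the amidotransferase, had a difference of 0.10 (adjusted p = 0.872, limma).

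Of 26 genes of the amino acid response, which ATF4 coordinates, none passed, 16 lay above 0 and the median was 0.01. Over all genes, 51.3% lay above 0. The smallest p values belonged to SHMT2 and PHGDH. SHMT2, the mitochondrial serine hydroxymethyltransferase, had log2 values of 5.72, 5.78 and 5.72 in CD47- EVs, against 5.27, 5.50 and 5.32 in WT EVs, a difference of 0.38 (standard error 0.08, adjusted p = 0.0668, limma). PHGDH, which begins serine synthesis, had a difference of 0.31 (standard error 0.08, adjusted p = 0.170, limma). For both genes all CD47- arrays lay above all WT arrays. This held for 4 of the 26 genes (15.4%), against 7.3% of all genes. Named after their values were seen, the others were MTHFD2 and SLC1A5. MTHFD2 had a difference of 0.30 (adjusted p = 0.235, limma) and SLC1A5 of 0.16 (adjusted p = 0.652, limma). Chosen after their values were seen, ATF4 itself had a difference of 0.05 and its target ASNS of 0.09. Chosen in the same way, PSPH and PSAT1, also enzymes of serine synthesis, had differences of -0.06 and -0.02. EIF2AK4, chosen likewise, had a difference of -0.25 (adjusted p = 0.316, limma). Its CD47- arrays all lay below its WT arrays, a pattern found in 5.53% of all genes.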

How the data were processed

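RNA of EVs from JinB8 cells (CD47- EVs) and WT Jurkat cells, 3 arrays each, was measured on Affymetrix human gene arrays. The log2 values deposited by the authors came from RMA (background correction, quantile normalization and probe set summary) run with Affymetrix Expression Console. These names come from the submitters' processing notes, without versions. The labeling protocol calls the human array a mouse array, and the human annotation was used. Probe sets with 1 gene symbol (19460) were kept, those with several (1754) or none (12083) were left out, and the brightest probe set by the mean of the 6 arrays stood for each gene. VARS1 and VARS2 had more than 1 probe set.

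Tests used limma 3.58.1 in R 4.3.3 (lmFit and eBayes, CD47- EVs minus WT EVs), with Benjamini-Hochberg adjustment over 18417 genes and a threshold of 0.05. No filter on dim genes was applied. The fitting step was tested on simulated data. The number of arrays limits the precision. Members and lists were chosen with earlier results of these data known, so counts over lists are descriptions. Named genes were those whose groups did not overlap, all members of the complex, the 4 mitochondrial enzymes with the smallest p, and of the other lists those that passed or the 2 with the smallest p. Promoter sequences came from RefSeq (GRCh38.p14), and a gene counted as matched if any of its windows held the motif. The alternatives tried were a block for the replicate number, centering on olfactory receptor genes, a further quantile normalization, an intensity trend with a robust prior, array weights, a filter on dim genes, the mean of probe sets, every probe set by itself, leaving out each array, and leaving out GARS1 and KARS1.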

Additional observations from a re-analysis of the deposited data

How the results depend on the processing

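With the replicate number as a block, 106 genes were higher. Then 1 mitochondrial enzyme reached an unadjusted p under 0.05 as lower, as did 2.85% of all genes. SSB was lost (adjusted p = 0.0634, limma), leaving 0 called genes of tRNA processing. The numbers did not pair the arrays (correlations of 0.02, -0.02 and -0.04), and no other call of those given changed under the block.

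Centering on olfactory receptor genes gave 237 genes higher and 2 members (GARS1 and QARS1). It gave cytosolic and mitochondrial medians of 0.18 and 0.035. Of 16 mitochondrial enzymes 12 lay above 0, 1 was higher at an unadjusted p under 0.05 and 2 had separated groups. The shares of all genes were then 74.5%, 9.14% and 13.7%, in that order. It turned 8 members positive: AIMP1 (0.046), EARS2 (0.014), IARS2 (0.0024), LARS2 (0.039), PARS2 (0.035), RARS1 (0.0086), TARS2 (0.035) and VARS2 (0.028). Amino acid response then had 1 call, SHMT2. A further quantile normalization turned AIMP1 to 0.0021.

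With dim genes filtered out, QARS1 passed (adjusted p = 0.0419), as did SHMT2, so 1 member and 1 amino acid response gene were called. Fewer genes were then tested, and without SSB among them tRNA processing had 0 calls. Left were 7 cytosolic enzymes (7 above 0, median 0.26), 2 complex members (both above 0, median 0.29) and 4 mitochondrial enzymes (0 above 0, 0 separated). Of all genes then tested, 56.3% lay above 0 and 9.45% had all CD47- arrays above all WT arrays.

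Leaving out each array gave 53 to 96 genes higher and 1 to 5 lower. Of cytosolic enzymes 4 to 7 reached an unadjusted p under 0.05 (4 without CD47- replicate 3), with a median from 0.11 to 0.17. Of complex members 1 to 3 did so (1 without CD47- replicate 3), with a median from -0.0043 to 0.11. Of mitochondrial enzymes 0 to 1 did so as higher, 0 to 1 as lower, and 1 to 3 had separated groups, with a median from -0.058 to 0.0098. Of all genes in these runs, 4.02% to 5.35% reached that p as higher and 2.29% to 3.16% as lower. All remaining CD47- arrays lay above all remaining WT arrays for 10.3% to 13.6% of all genes. Calls were 0 to 1 for tRNA processing and 0 to 1 for the amino acid response (SHMT2 without WT replicate 2). Members that changed sign ranged from -0.047 to 0.017 for AIMP1, -0.049 to 0.090 for EPRS1, -0.071 to 0.054 for LARS2, -0.057 to 0.13 for MARS1, -0.0049 to 0.076 for MARS2, -0.081 to 0.021 for PARS2, -0.10 to 0.0088 for RARS1, -0.021 to 0.094 for RARS2, -0.089 to 0.055 for TARS2 and -0.018 to 0.12 for VARS1. CD47 ranged from -0.088 to 0.091.

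Over the alternatives that tested them, which exclude the filter on dim genes for GARS1 and for the pairs, the adjusted p ran from 0.0291 to 0.339 for QARS1 and from 0.0223 to 0.420 for GARS1, and the cytosolic mRNA had the larger difference in 11 to 14 of the pairs. Except where named, the cause of a change was not tested. Most members lay below the olfactory receptor median, with 11 of 36 above it, and 3 arrays per group limit what could be detected.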

Other observations

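The synthetases fall into 2 catalytic classes with unrelated folds. This grouping was chosen after the values were seen, and no test was made. The 9 cytosolic enzymes of class II, among them GARS1, NARS1, SARS1, FARSA, KARS1, TARS1 and AARS1, all had log2 differences above 0 (CD47- EVs minus WT EVs), with a median of 0.19, and 7 had groups that did not overlap. Of all genes 51.3% lay above 0, and 7.3% had all CD47- arrays above all WT arrays. Of the 9 cytosolic enzymes of class I, 7 lay above 0, the median was 0.08, and QARS1 and IARS1 had groups that did not overlap. EPRS1 holds an enzyme of each class and was left out of both. The mitochondrial enzymes had the opposite order in the deposited values. Of 7 mitochondrial class II enzymes 1 (NARS2) lay above 0, with a median of -0.07, and of 9 of class I 5 lay above 0, with a median of 0.05.

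A pair of charging partners, named here after their values were seen, had all CD47- arrays below all WT arrays, as did 5.53% of all genes. DTD2, an enzyme that removes wrongly attached amino acids from tRNA, had log2 values of 4.25, 4.42 and 4.32 in CD47- EVs, against 4.67, 4.65 and 4.59 in WT EVs, a difference of -0.31 (adjusted p = 0.139, limma). TARS3, a further cytosolic threonyl-tRNA synthetase outside the symbol rule, had values of 5.41, 5.20 and 5.30 in CD47- EVs, against 5.48, 5.51 and 5.67 in WT EVs, a difference of -0.25 (adjusted p = 0.366, limma). Its paralog TARS1 had a difference of 0.16, and the difference between the paralogs was not tested.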
